A study of Homo sapiens with 11 samples.

Results

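MicroRNAs (miRNAs) with a number of 3000 or more in their name, such as miR-7706, were registered late, mostly once deep sequencing of small RNA had become routine. Among the 2588 mature miRNAs listed for these cells, 1442 carried such a number, and 59 of them reached a mean of 10 CPM (reads of the miRNA after each library is scaled to 1000000) in at least 1 of 6 human tumour cell lines. These 59 late-numbered miRNAs are described here. They were chosen by that measured level, so the levels themselves are given as a description without a test, and no age or origin of a miRNA was measured.

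The libraries held small RNA from unperturbed cultures of A549 (lung adenocarcinoma), ES2 (ovarian carcinoma), MV3 (melanoma), PANC1 (pancreatic carcinoma), BE(2)C (neuroblastoma) and HepG2 (hepatoblastoma), with 2 libraries per line except PANC1, which had 1. No knockdown, transfection or drug was part of these samples. The 7 libraries of A549, ES2, MV3 and PANC1 were made with the NEXTflex kit from 50 ng of RNA, and the 4 libraries of BE(2)C and HepG2 were made by Novogene, so the preparation and these groups of lines cannot be told apart. Harvest followed seeding by 48 h, except that the sources give both 24 h and 48 h for BE(2)C.

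A mature miRNA is a short single strand that is cut from a hairpin by Drosha and Dicer and loaded into an Argonaute protein. The bases at its 5' end, the seed, do most of the pairing with target mRNAs. Some hairpins instead take 1 or both of their ends from splicing of a short intron, and these are called mirtrons or tailed mirtrons. Many late-registered human miRNAs have no counterpart outside primates, are expressed at low levels, and were first seen in few tissues.

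The mature sequences matched 51 of the 59 names in RefSeq (GRCh38.p14). In every sequence below, capitals mark the seed, bases 2 to 8 from the 5' end. The first set holds the most abundant miRNAs that had a sequence.

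miR-7706: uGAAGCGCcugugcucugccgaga
miR-7974: aGGCUGUGaugcucuccugagccc
miR-3613-5p: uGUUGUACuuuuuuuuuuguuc
miR-3615: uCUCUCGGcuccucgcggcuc
miR-3158-3p: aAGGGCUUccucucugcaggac
miR-5010-3p: uUUUGUGUcucccauuccccag
miR-4521: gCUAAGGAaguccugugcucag

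The second set holds the miR-3689 family, the hairpin miR-3152 with both arms, and miR-3065 with both arms beside miR-338-3p, which is read from the opposite strand.

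miR-3689a-5p: uGUGAUAUcaugguuccuggga
miR-3689f: uGUGAUAUcgugcuuccuggga
miR-3152-5p: aUUGCCUCuguucuaacacaag
miR-3152-3p: uGUGUUAGaauaggggcaauaa
miR-3065-5p: uCAACAAAaucacugaugcugga
miR-3065-3p: uCAGCACCaggauauuguuggag
miR-338-3p: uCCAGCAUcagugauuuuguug

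The third set holds miRNAs whose 3' end lies at the 3' end of an annotated intron.

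miR-3605-3p: cCUCCGUGuuaccuguccucuag
miR-6806-3p: uGAAGCUCugacauuccugcag
miR-6803-3p: uCCCUCGCcuucucacccucag
miR-6515-3p: uCUCUUCAucuaccccccag
miR-6511a-3p: cCUCACCAucccuucugccugc
miR-6511b-3p: cCUCACCAccccuucugccugca

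The fourth set holds miRNAs whose sequence is also found, exactly or with 1 mismatch, in another kind of RNA, and the fifth those that set 1 line most apart.

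miR-7977: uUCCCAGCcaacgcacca
miR-4485-3p: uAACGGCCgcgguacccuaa
miR-5701: uUAUUGUCacguucugauu
miR-7978: uCUGGUGUauagcguugcuca
miR-6715a-3p: cCAAACCAgucgugccugugg
miR-3939: uACGCGCAgaccacaggauguc
miR-3935: uGUAGAUAcgagcaccagccac

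The total of mature miRNA reads ranged from 1173902 in MV3 replicate 1 to 12137452 in HepG2 replicate 2, so that 10 CPM stood for between 11.7 and 121 reads. A count of 0 allowed a level of up to 2.56 CPM in the shallowest library and 0.247 CPM in the deepest, for counting error only. As checks of the labels, 3 neuronal miRNAs summed to 95240 CPM in BE(2)C and to at most 1930 CPM elsewhere, and 2 of 4 liver miRNAs, miR-148a-3p and miR-192-5p, were highest in HepG2, where miR-148a-3p alone averaged 739220 CPM. The other two were not: miR-122-5p averaged 415 CPM in BE(2)C and 57.0 in HepG2, and miR-194-5p 1891 CPM in A549 and 230 in HepG2. The melanocytic miR-211-5p and miR-509-3p had no read in any line, MV3 included. The epithelial miR-200c-3p, miR-141-3p and miR-200a-3p did not set the carcinoma lines apart. Their summed level was highest in HepG2, at 149 CPM, and next highest in A549. It was 42.6 CPM in ES2 and 35.5 in PANC1, close to the 33.4 in BE(2)C and 22.2 in MV3. PANC1 held 6273 CPM of the muscle miRNA miR-1-3p, which averaged at most 253 CPM in any other line. ES2 held 306 CPM of the blood-cell miRNA miR-142-3p, which averaged at most 0.894 CPM in any other line.

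The share of names that reached 10 CPM was lower in every band from 3000 on than in the bands below 3000. It was 47.1% for numbers below 1000 (443 of 940), 21.4% from 1000 up to 3000 (44 of 206), 9.57% from 3000 up to 4000 (27 of 282), 2.37% from 4000 up to 5000 (12 of 506), 2.59% from 5000 up to 6000 (3 of 116) and 3.16% from 6000 on (17 of 538). Of the 1442 late-numbered names, 670 had no read in any library. Levels were also lower: the highest line mean had a median of 21.3 CPM over the 59 miRNAs and of 216 CPM over the 443 numbered below 1000, while 9 of the 59 reached 100 CPM and 36 peaked between 10 and 30 CPM.

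**Figure D1:**
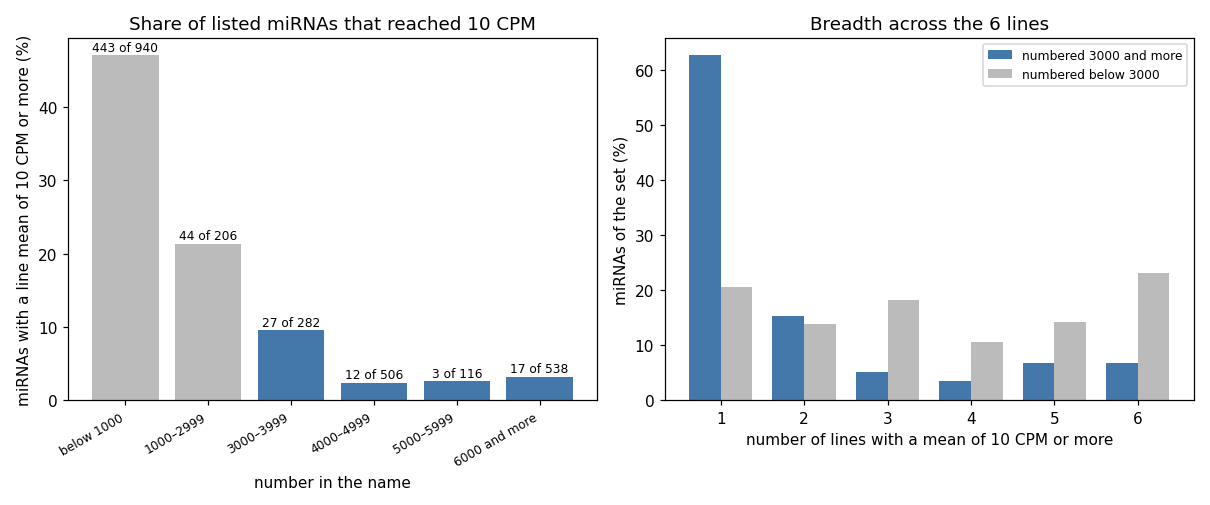
Left, the percentage of listed miRNAs with a line mean of 10 CPM or more, by the number in the name, with counts above the bars; right, the percentage of miRNAs at 10 CPM or more in 1 to 6 lines, for the 59 late-numbered miRNAs (blue) and for those with lower numbers (grey). The late-numbered bars sit at or below 9.57% on the left, and 62.7% of the late-numbered miRNAs fall in the 1-line bar on the right.

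Most of the 59 reached the level in few lines. In 37 of 59 (62.7%), the mean was 10 CPM or more in 1 line only, against 20.5% of the lower-numbered miRNAs with that level. The 2 sets also differed in level, since 61% of the 59 and 19.5% of the lower-numbered ones peaked between 10 and 30 CPM. The part of level in this breadth was not tested. In all 6 lines, 4 miRNAs reached 10 CPM: miR-7706, miR-7974, miR-3615 and miR-4326. The 37 miRNAs seen at that level in 1 line belonged to BE(2)C (17), PANC1 (8), ES2 (5), MV3 (5) and HepG2 (2), with none in A549. Over all 546 miRNAs, 137 were at that level in 1 line. They belonged to BE(2)C (76), PANC1 (25), MV3 (18), ES2 (9), HepG2 (6) and A549 (3), so BE(2)C led in both sets. A549 was also the line with the highest mean for 0 of the 59, against 26 of all 546 miRNAs at that level. BE(2)C held the highest mean for 23 (39%), close to its share over all 546 (44.5%), followed by PANC1 with 14, MV3 with 10, ES2 with 8 and HepG2 with 4. With TMM factors, a scaling by the bulk of the miRNAs in place of the total, 13 were highest in BE(2)C and 6 reached 10 CPM there alone. Leaving out BE(2)C replicate 1 or 2 gave 23 or 24 and 15 or 16. These counts were not made over all 546, so the changes are not read as a trait of the 59.

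The 17 that reached 10 CPM in BE(2)C alone had line means from 10.7 to 132 CPM: miR-5010-3p, miR-6806-3p, miR-7978, miR-3913-5p, miR-5100, miR-3144-3p, miR-6843-3p, miR-4443, miR-4485-3p, miR-6515-3p, miR-3176, miR-4791, miR-6866-5p, miR-6515-5p, miR-4741, miR-3117-3p and miR-4473. With TMM factors, miR-4791, miR-4473, miR-3144-3p and miR-6843-3p of these were higher in both HepG2 libraries than in either BE(2)C library. The others of the 17 were not. The 8 of PANC1, from 12 to 34.4 CPM, were miR-6511b-3p, miR-4435, miR-6511a-3p, miR-5701, miR-3939, miR-8072, miR-4775 and miR-3065-3p. Those of ES2 were the 4 miR-3689 names and miR-6720-3p (12.2 CPM), those of MV3 miR-3152-3p, miR-6747-3p, miR-3679-5p, miR-4804-5p and miR-3935 (10.2 to 17.5 CPM), and those of HepG2 miR-4664-3p and miR-6715a-3p (21.4 and 18.5 CPM). In 5 lines stood miR-3613-5p, miR-3158-3p, miR-4521 and miR-3607-3p, in 4 miR-7977 and miR-3173-5p, in 3 miR-3909, miR-3605-3p and miR-3187-3p, and in 2 the 9 others, miR-4746-5p, miR-6842-3p, miR-6803-3p, miR-3152-5p, miR-3928-3p, miR-3177-3p, miR-3940-3p, miR-3065-5p and miR-3200-3p.

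**Figure D2:**
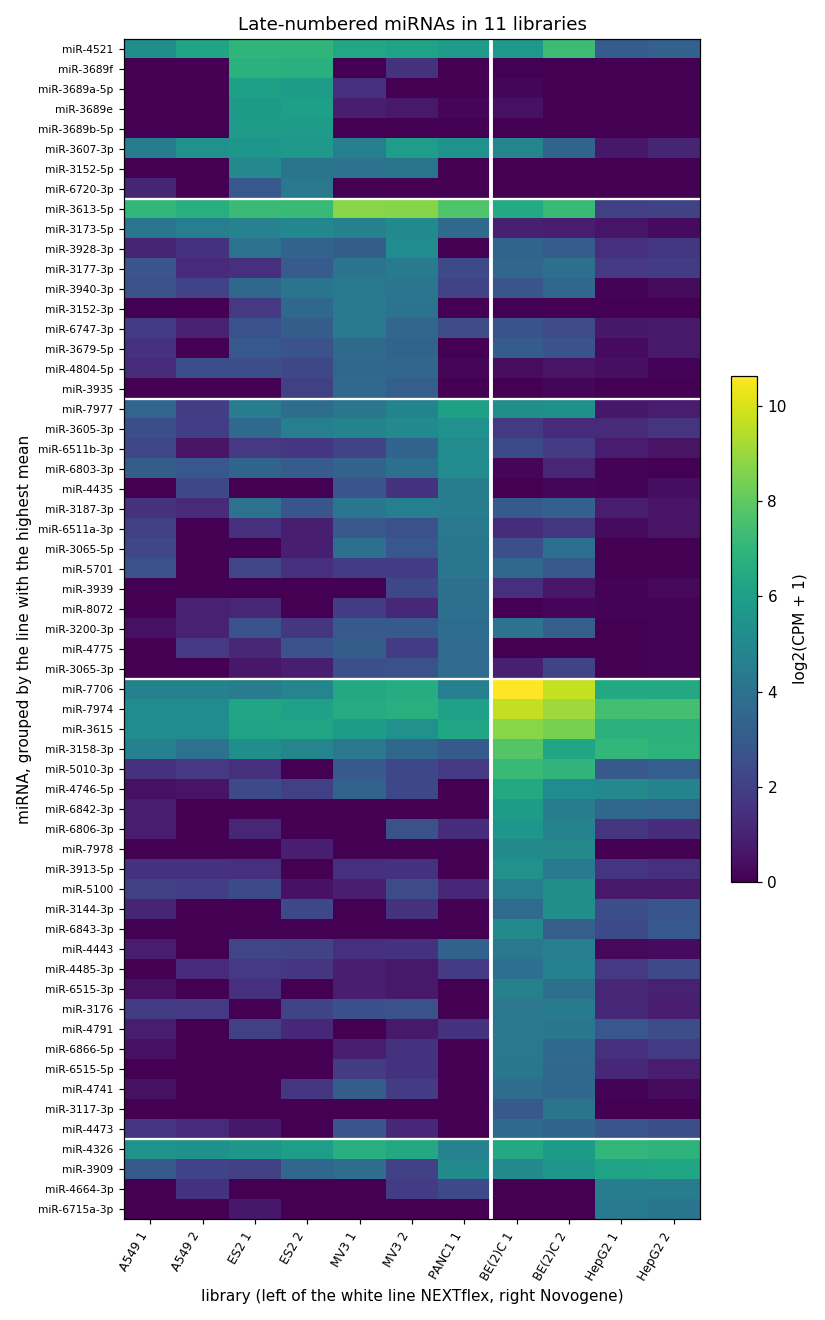
Levels of the 59 late-numbered miRNAs as log2(CPM + 1), with 1 row per miRNA and 1 column per library; white horizontal lines separate miRNAs by the line with the highest mean, and the white vertical line separates NEXTflex (left) from Novogene (right) libraries. The 23 rows highest in BE(2)C form the largest block, and the miR-3689 rows are coloured almost in ES2 alone.

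All 59 together made up a small part of each library. Their summed share of reads was 0.0449% and 0.0438% in A549, 0.107% and 0.109% in ES2, 0.123% in both MV3 libraries, 0.0918% in PANC1, 0.406% and 0.282% in BE(2)C, and 0.0839% and 0.0823% in HepG2. The 95% Wilson intervals, for counting error only, were narrow beside these differences, for example 0.402% to 0.411% and 0.278% to 0.286% for the pair from BE(2)C. A549 had the lowest shares and BE(2)C the highest, and the BE(2)C libraries differed from each other by more than their counting error. This order holds for shares of all miRNA reads, of which miR-148a-3p alone averaged 739220 CPM in HepG2. Factors by the bulk of the miRNAs (TMM) were 0.166 and 0.217 in HepG2 and 1.45 and 1.61 in BE(2)C. The shares were not rescaled by them, so the rank of BE(2)C over HepG2 is not given for that scaling. miR-3613-5p was the most abundant of the 59 in all 7 NEXTflex libraries, miR-7706 in both from BE(2)C and miR-7974 in both from HepG2.

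miR-7706 lies in a UTR exon of AKAP13 (chr15:85380639-85380662, plus strand, hg38), which encodes an anchoring protein for protein kinase A. It measured 24.7 and 24.3 CPM in A549, 21 and 27.9 in ES2, 84.3 and 95.5 in MV3, 22.9 in PANC1, 1581 and 826 in BE(2)C, and 85.9 and 83.7 in HepG2. Both BE(2)C libraries were far above all others, although they differed from each other, and MV3 stood with HepG2 above the remaining 3 lines. miR-7974, in an intron of the zinc finger gene ZNF653 (chr19:11495544-11495567, minus strand), measured 34.5 CPM in both A549 libraries, 76.4 and 66.2 in ES2, 92.9 and 103 in MV3, 67.0 in PANC1, 797 and 537 in BE(2)C, and 168 and 174 in HepG2. miR-3615, in a UTR exon of the scaffold protein gene NHERF1 (chr17:74748663-74748683, plus strand), gave the same order at the extremes, with 34.5 and 35.4 CPM in A549, 69.7 and 77.1 in ES2, 57.1 and 40.0 in MV3, 76.7 in PANC1, 423 and 346 in BE(2)C, and 112 and 113 in HepG2. With TMM factors HepG2 was highest for both, at 1012 and 801 for miR-7974 and 674 and 521 for miR-3615, and it overlapped BE(2)C for miR-7706. By CPM, in both miRNAs the libraries of ES2 and the PANC1 library were too close to be ordered.

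miR-3613-5p went the other way in HepG2. It lies in an intron of DLEU2 (chr13:49996465-49996486, minus strand), the long non-coding RNA that also hosts miR-15a and miR-16-1. Its level was 129 and 102 CPM in A549, 149 and 147 in ES2, 428 and 410 in MV3, 208 in PANC1, 89.2 and 144 in BE(2)C, and 3.03 and 3.13 in HepG2. MV3 was highest and HepG2 lowest without overlap, and A549, ES2 and BE(2)C overlapped or lay next to each other. HepG2 was also lowest with TMM factors, at 18.2 and 14.4 against at least 61.6 elsewhere.

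miR-4521 was lowest in HepG2 by CPM, but not with TMM factors. Its hairpin overlaps the serine tRNA gene TRS-GCT4-3, and the mature form (chr17:8186948-8186969, plus strand) lies in no annotated gene of the GENCODE set. It measured 37.8 and 71.8 CPM in A549, 123 and 125 in ES2, 80.1 and 70.4 in MV3, 57.6 in PANC1, 50.1 and 153 in BE(2)C, and 7.49 and 8.65 in HepG2. The BE(2)C libraries lay on both sides of the ES2 libraries, so those lines could not be ordered. With TMM factors HepG2 measured 45.1 and 39.9, within the range of A549 (37.1 and 65.1) and of BE(2)C (34.6 and 94.7). Whether any of its reads came from tRNA was not tested.

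miR-3158-3p, from a pair of hairpins that face each other on both strands within DPCD (chr10:101601427-101601448 and chr10:101601466-101601487), measured 24.3 and 15.0 CPM in A549, 38.5 and 27.5 in ES2, 17.9 and 11 in MV3, 7.08 in PANC1, 217 and 74.3 in BE(2)C, and 129 and 116 in HepG2. Every Novogene library was above every NEXTflex library, and the HepG2 values lay between those of BE(2)C. Its 2 copies carried 2753 and 2633 reads, and since the mature sequence is the same, a read cannot be placed on either.

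miR-4326 was at 10 CPM or more in all 6 lines, with means from 25.5 CPM in PANC1 to 121.7 CPM in HepG2. It measured 41.6 and 38.8 CPM in A549, 48.7 and 61.9 in ES2, 103 and 83.9 in MV3, 25.5 in PANC1, 85.2 and 54.3 in BE(2)C, and 127 and 117 in HepG2. HepG2 was highest without overlap. miR-3909, in an intron of the endosomal adaptor gene TOM1 (chr22:35335710-35335731, plus strand), was also highest in HepG2, with 71.9 and 76.2 CPM, after 32.7 and 45.9 in BE(2)C, 32.7 in PANC1, 12.8 and 3.23 in MV3, 3.01 and 10.5 in ES2 and 7.12 and 3.40 in A549. The A549, ES2 and MV3 libraries overlapped throughout.

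miR-4746-5p and miR-5010-3p had their highest means by CPM in BE(2)C. miR-4746-5p (chr19:4445987-4446009, plus strand, opposite UBXN6) measured 87.2 and 34.7 CPM in BE(2)C and 31.2 and 26.0 in HepG2, with 0.375 and 0.485 in A549, 4.21 and 3.05 in ES2, 9.37 and 3.87 in MV3 and no read in PANC1. Both Novogene lines were above all NEXTflex libraries. Between BE(2)C and HepG2 the difference did not pass by CPM, and with TMM factors it was higher in HepG2, at 188 and 120 against 60.2 and 21.5. miR-5010-3p, at the end of an intron of the proton pump subunit gene ATP6V0A1 (chr17:42514267-42514288, plus strand), measured 141.6 and 122.5 CPM in BE(2)C and at most 7.91 CPM in any other library. Those other values were 1.87 and 2.43 in A549, 1.80 and 0 in ES2, 6.81 and 3.87 in MV3, 2.36 in PANC1, and 6.73 and 7.91 in HepG2. With TMM factors miR-5010-3p was still highest in BE(2)C, at 97.7 and 75.9, but nearer to HepG2, at 40.5 and 36.4. The NEXTflex libraries then held at most 3.74.

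**Figure D3:**
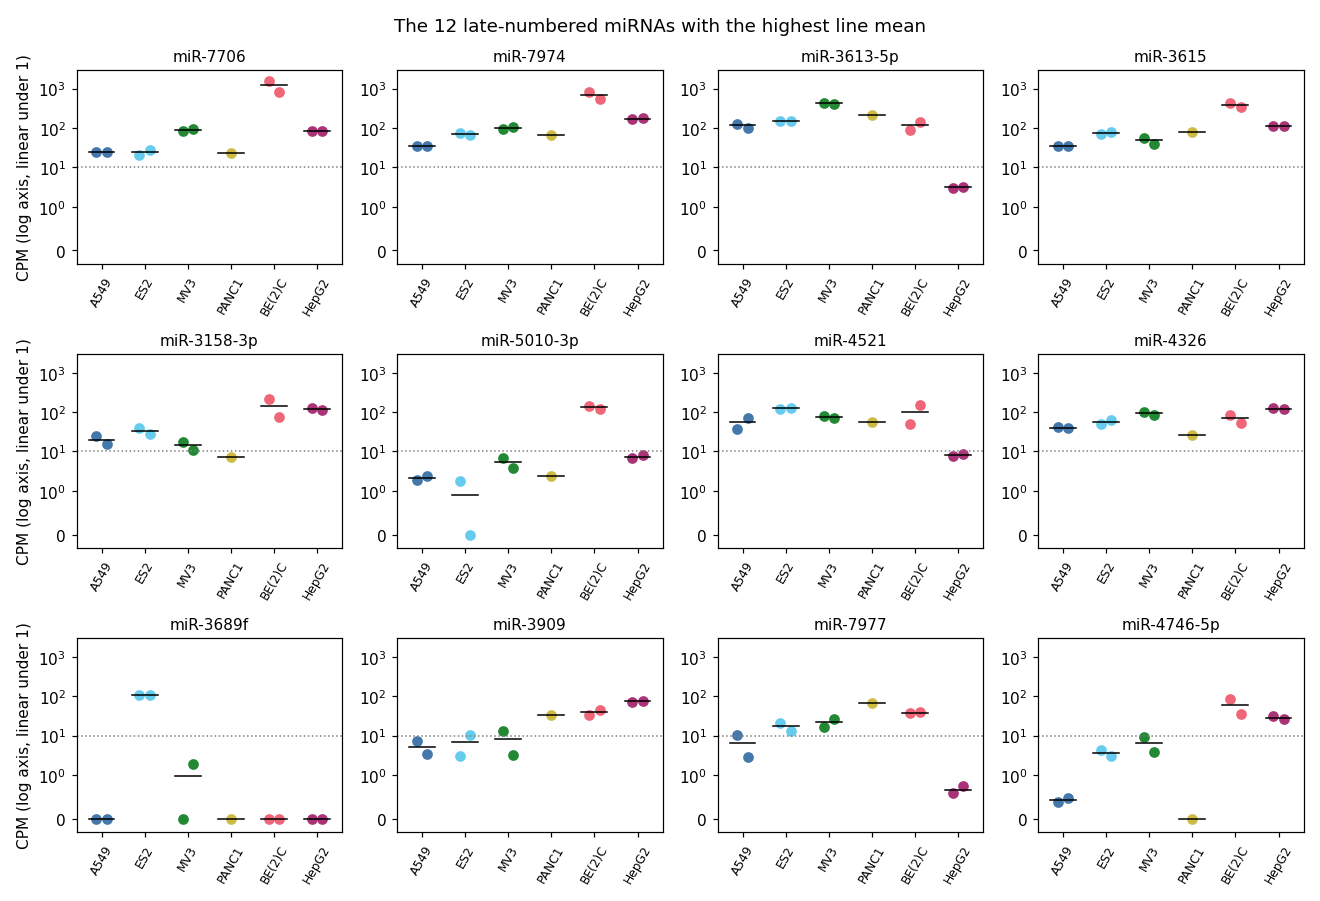
Level of the 12 most abundant late-numbered miRNAs in each library (points) with the line mean (bar), in CPM on an axis that is logarithmic above 1 and linear below; the dotted line is 10 CPM. miR-7706 stands at 1581 and 826 CPM in BE(2)C, miR-3613-5p at about 3 CPM in HepG2, and miR-3689f at 110 and 105 CPM in ES2.

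The miR-3689 family was the clearest case of a single line. Its 4 members lie within a short stretch of chromosome 9 on the minus strand, in no annotated gene, at 134849534 (miR-3689a-5p), 134850206 (miR-3689b-5p), 134850614 (miR-3689e) and 134850783 (miR-3689f). In ES2 replicates 1 and 2, miR-3689a-5p measured 64.9 and 56.6 CPM, miR-3689b-5p 55.9 and 57.1, miR-3689e 54.1 and 62.7, and miR-3689f 110 and 105. The summed level was 285 and 282 CPM in ES2, or 26.7% and 25.8% of all reads of the 59 miRNAs there, while the 9 other libraries held 12 reads in all.

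The first 3 of these have an identical mature sequence that matches 3 places in the genome, and their near-equal levels are those of 1 sequence divided over 3 names. They cannot be told apart. miR-3689f matches 1 place and differs from miR-3689a-5p at 2 of 22 bases, A10G and G13C, counted from the 5' end with the base of miR-3689a-5p first, so the family shares 1 seed. The opposite arms were nearly absent, with 11 reads of miR-3689a-3p against 241 of the 5p arm and 3 of miR-3689b-3p against 224, over all libraries.

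Both arms of 3 hairpins were among the 59. miR-3152, in an intron of ADAMTSL1 (chr9:18573316-18573337 for the 5p arm and chr9:18573350-18573371 for the 3p arm), was read in ES2 and MV3 and had no read of either arm in A549, PANC1, BE(2)C or HepG2. The 5p arm measured 30.7 and 16.1 CPM in ES2 and 15.3 and 16.1 in MV3, and the 3p arm 2.41 and 10.9 in ES2 and 19.6 and 15.5 in MV3. The 3p arm was below the 5p arm in both ES2 libraries, and in MV3 neither arm was above the other in both libraries.

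miR-6515, at the gene of the chaperone calreticulin (CALR), was read mainly in BE(2)C by CPM. There the 5p arm measured 17.3 and 10.4 CPM and the 3p arm (chr19:12940521-12940540, plus strand) 23.5 and 14.2, and no other library passed 2.56 CPM for either. The 3p arm was above the 5p arm in both BE(2)C libraries. With TMM factors the 5p arm measured 11.93 and 6.44 in BE(2)C and 7.597 and 3.796 in HepG2, so these lines overlapped. The 3p arm then measured 16.24 and 8.808 in BE(2)C and 7.09 and 4.555 in HepG2, without overlap.

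miR-3065 is read from the strand opposite miR-338 in an intron region of AATK, a kinase gene on the other strand. miR-3065-5p (chr17:81125886-81125908, plus strand) and miR-338-3p (chr17:81125887-81125908, minus strand) overlap by 22 bases that are complementary throughout, as the sequences above show. miR-3065-5p measured 3.75 and 0 CPM in A549, 0 and 0.871 in ES2, 13.6 and 6.45 in MV3, 16.8 in PANC1, 5.05 and 13.9 in BE(2)C and 0 in both HepG2 libraries, and miR-3065-3p was highest in PANC1 as well, at 12 CPM. miR-338-3p had 6 reads and miR-338-5p 165 reads over all 11 libraries. Whether the counting used the strand is not given in the sources used here, and without it the reads of such a pair cannot be told apart.

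**Figure D4:**
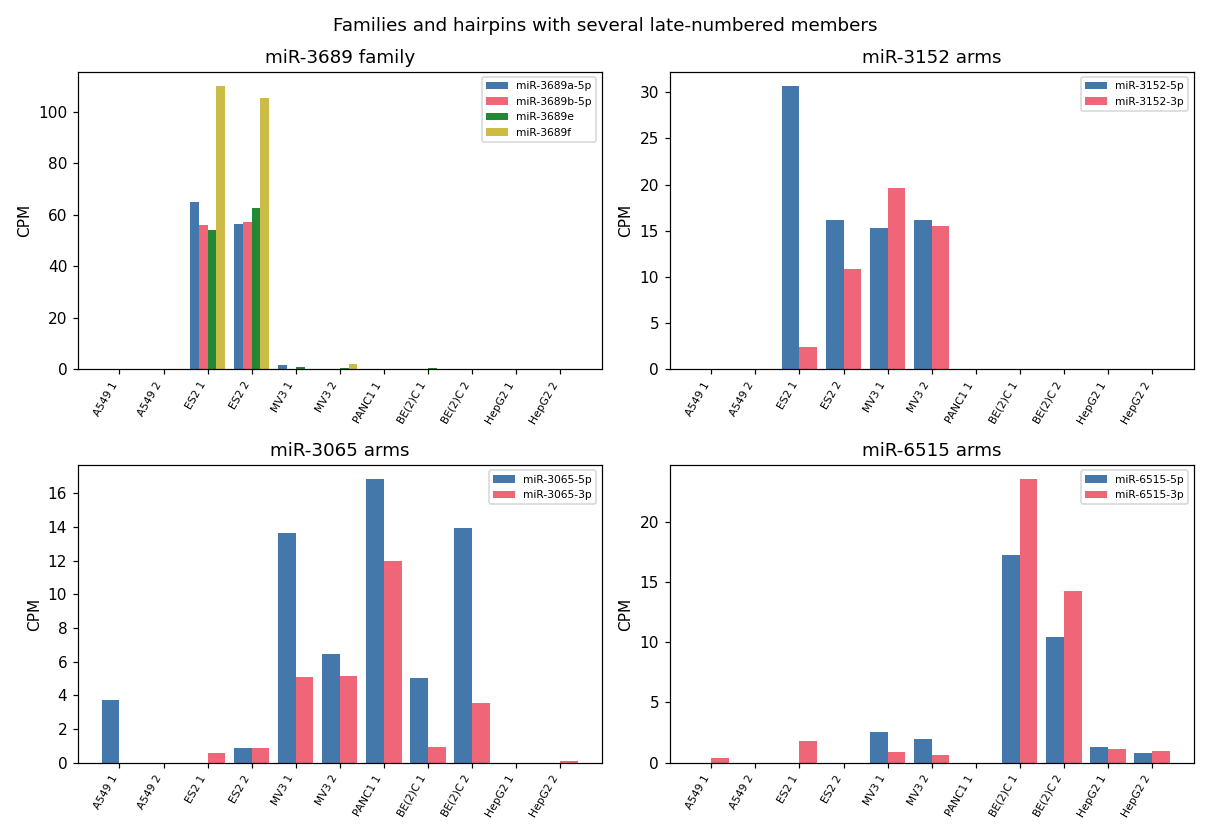
Level in CPM (linear axis from 0) of the 4 miR-3689 names and of both arms of miR-3152, miR-3065 and miR-6515 in each of the 11 libraries. The miR-3689 bars stand in ES2 alone apart from values of at most 1.94 CPM, miR-3152 in ES2 and MV3, and miR-6515 mainly in BE(2)C.

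Some hairpins could be placed with both arms while only 1 arm was among the 59. In these, that arm took most of the reads. The 59 were chosen by level, so this follows largely from the choice. Other hairpins, such as that of miR-3613, were not compared. miR-5010-3p held 96.6% of the reads of its pair, miR-6803-3p 99.8%, miR-6806-3p 99.8%, miR-3173-5p 94.5% and miR-3605-3p 83.0%, the lowest of the pairs compared with 1 arm kept. miR-3158-5p, miR-4746-3p and miR-3117-5p had no read.

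The miRNA with the widest gap to the next line differed in each line. In BE(2)C it was miR-7978, in an intron of KCNIP4 (chr4:21464738-21464758, minus strand), a gene for a potassium channel interacting protein. It measured 32.0 and 31.5 CPM in BE(2)C, 0.871 in ES2 replicate 2, under the 1.31 CPM that a count of 0 allows there, and 0 in the 8 other libraries. miR-3117-3p, in an intron of SGIP1, an endocytic gene of neurons, was read in BE(2)C alone, at 6.78 and 15.9 CPM.

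In HepG2 the widest gap was that of miR-6715a-3p, in an intron of TECTB (chr10:112299660-112299680, plus strand), with 20.5 and 16.6 CPM, 0.601 in ES2 replicate 1 and no read in the rest. In PANC1 it was miR-3939 (chr6:166997830-166997851, minus strand), with 14.0 CPM in the single library, 0 and 3.87 in MV3, 1.73 and 0.612 in BE(2)C, 0.0842 and 0.165 in HepG2 and no read in A549 or ES2. In MV3 it was miR-3935, in an intron of GNAO1 (chr16:56245577-56245598, plus strand), a G protein alpha subunit gene, with 11.9 and 8.39 CPM, 0 and 3.05 in ES2, 0.153 in BE(2)C replicate 2 and no read elsewhere. In ES2 it was miR-3689b-5p, with no read outside ES2. A549 had none, since it was highest for none of the 59.

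miR-3935 and miR-4804-5p were also the 2 last to pass the level, both in MV3, at 10.2 and 10.7 CPM from 13 to 16 reads per library. Just outside stood miR-4517 with 9.96 CPM in ES2 and miR-3143 with 9.03 CPM in PANC1. The edge was crowded, with 26 late-numbered miRNAs between 10 and 20 CPM and 62 between 5 and 10 CPM.

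The composition of the 51 miRNAs with a sequence is given as counts, with no test. They began with U in 31 of 51 (60.8%), against 39.2% of the 1228 late-numbered miRNAs with a sequence that were not kept and 38.1% of the 441 lower-numbered ones at 10 CPM. A length of 21 to 23 bases was found in 78.4%, 74.0% and 92.3% of the 3 sets in the same order, and the median GC content was 56.5%, 54.5% and 47.8%. None of the 51 had the seed of a lower-numbered miRNA at 10 CPM, whereas 3.91% of the late-numbered ones not kept and 30.2% of the lower-numbered ones shared a seed with a lower-numbered miRNA at that level. Among themselves, the 51 names held 49 distinct sequences and 47 distinct seeds, with 2 seeds shared: GUGAUAU by the 4 miR-3689 names, and CUCACCA by miR-6511a-3p and miR-6511b-3p.

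The hairpins were rarely near a lower-numbered one. Only 1 of 54 (1.85%), MIR3065, lay within 10 kb of a lower-numbered hairpin, as for 1.70% of the 825 late-numbered hairpins not kept, against 50.9% of the 287 lower-numbered ones, many of which are in polycistronic clusters. Within 10 kb of any other hairpin lay 13 of the 54 (24.1%), against 12.2% and 52.6%. By mature position, 26 of 51 (51.0%) were in an intron and 12 (23.5%) in no annotated gene, against 64.9% and 8.39% for the lower-numbered ones.

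At 7 of 51 (13.7%), the mature 3' end lay within 2 bases of the 3' end of an annotated intron on the same strand, the position of a 3p arm cut out by splicing. The share was 13.7% among late-numbered miRNAs not kept and 0.68% among lower-numbered ones. All 7 were 3p arms, 35.0% of the 20 3p arms with a sequence, against 43.2% of the 382 such arms not kept and 1.46% of the lower-numbered ones. They were miR-3605-3p in PHC2, a Polycomb gene, miR-5010-3p in ATP6V0A1, miR-6511b-3p in PKD1 and in a long non-coding RNA gene, miR-6511a-3p in NPIPA1, in the PKD1 pseudogene PKD1P2 and in a long non-coding RNA gene, miR-6515-3p in CALR, miR-6803-3p in the phosphatase subunit gene PPP6R1 and miR-6806-3p in ZSCAN22. As printed above, 5 of them end at the last base of the intron, and the sequences of miR-6511b-3p and miR-6511a-3p end 1 and 2 bases from it.

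These 7 did not share a line. miR-5010-3p, miR-6515-3p and miR-6806-3p were highest in BE(2)C, the last with 47.6 and 25.7 CPM, whereas the other 4 were highest in PANC1. miR-6803-3p measured 34.0 CPM in PANC1, 6.31 to 13.6 CPM in the other NEXTflex libraries and at most 1.22 CPM in the Novogene ones, and miR-3605-3p measured 40.1 CPM in PANC1 and at most 2.53 CPM in the Novogene libraries. miR-6511a-3p and miR-6511b-3p, whose reads are divided over several copies on chromosome 16, measured 18.3 and 34.4 CPM in PANC1 and at most 9.68 CPM elsewhere.

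Of the 51 sequences, 3 matched another small RNA or the mitochondrial genome with at most 1 mismatch (5.88%, against 0.814% of the late-numbered ones not kept and 0.907% of the lower-numbered ones). miR-4485-3p matches MT-RNR2, the mitochondrial large ribosomal RNA, exactly, and 4 places in the genome in all. It measured 13.8 and 24.6 CPM in BE(2)C and at most 4.12 CPM elsewhere. With TMM factors it measured 9.54 and 15.3 in BE(2)C and 14.7 and 19.0 in HepG2, so these lines overlapped. miR-7977 matches, with 1 mismatch, 8 glycine tRNA genes of the TRG-TCC group once their CCA tail is added. It measured 65.7 CPM in PANC1, 36.7 and 39.8 in BE(2)C, 17.0 and 27.1 in MV3, 21 and 13.1 in ES2, 10.1 and 2.91 in A549, and 0.589 and 0.742 in HepG2. miR-5701 matches SNORD43, a guide RNA for ribosomal RNA methylation, with 1 mismatch and measured 16.8 CPM in PANC1 and at most 10.8 CPM elsewhere. Whether reads of these RNAs were counted here was not tested.

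The libraries of a line agreed less well in BE(2)C than elsewhere. Over the 31 late-numbered miRNAs at 10 CPM there, the median absolute difference between replicates was 0.69 on the log2(CPM + 1) scale and 9 differed by more than 2-fold, much as for the 370 other miRNAs there (0.62, and 89 over 2-fold). The late-numbered miRNAs had medians of 0.34 in A549, 0.29 in ES2, 0.32 in MV3 and 0.10 in HepG2, where 0, 2, 2 and 0 differed by more than 2-fold. Medians of the other miRNAs were 0.21, 0.17, 0.22 and 0.16 in the same order, so lower except in HepG2. The sets differ in level, and its part in these medians was not tested. In BE(2)C, 20 of the 31 were higher in replicate 1, against 114 of 370 other miRNAs. The liver miRNA miR-122-5p measured 823 and 5.96 CPM in these libraries and the red blood cell miRNA miR-451a 299 and 46.0 CPM. Their part in the spread of the late-numbered miRNAs was not tested.

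**Figure D5:**
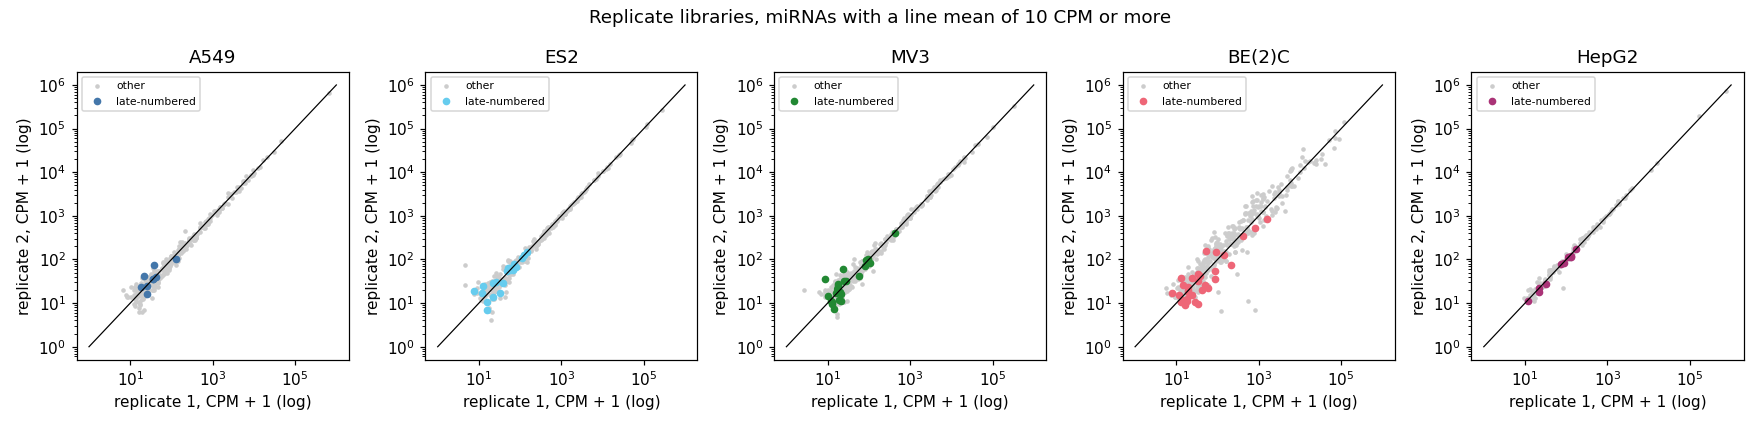
Level in replicate 2 against replicate 1 (CPM + 1, both axes logarithmic) for each line with 2 libraries, with late-numbered miRNAs coloured, other miRNAs grey and the line of equality black. The points scatter most in BE(2)C, where 20 of the 31 coloured points lie below the line.

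The 2 preparations were compared by overlap. Every Novogene library was above every NEXTflex library for 8 of the 59, where 6.04% of all 546 miRNAs did so: miR-7974, miR-3615, miR-3158-3p, miR-4746-5p, miR-6842-3p, miR-3144-3p, miR-6843-3p and miR-4791. The reverse held for 3 of the 59, where 16.1% of all did so: miR-3605-3p, miR-6803-3p and miR-3173-5p, the last in an intron of DICER1 (chr14:95137961-95137982, minus strand), the gene of the enzyme that cuts miRNA hairpins. miR-3173-5p measured 16.9 and 22.3 CPM in A549, 25.3 and 30.1 in ES2, 23.9 and 31.6 in MV3, 11.7 in PANC1 and at most 0.931 CPM in the Novogene libraries. With TMM factors the counts were 19 and 3, where 15.9% and 13.9% of all did so. Among the latter 3, miR-3613-5p took the place of miR-3605-3p, which then measured 8.61 and 9.49 in HepG2 and 4.77 and 2.64 in A549.

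Differences between lines were tested with limma on log2(CPM + 1), adjusted by Benjamini-Hochberg over all 546 miRNAs. Across the 6 lines 59 of 59 passed, where 99.3% of all did, and across the 4 NEXTflex lines 30 of 38 passed, where 85.4% of the 453 tested did. Leaving out 1 library, which left its line with 1, lowered the latter count and the share of all miRNAs that passed. The level that chose the miRNAs used these same lines, so nothing is read from these counts.

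Lines were also compared in pairs within a preparation. The counts over all 59 are given beside those over all 546 as a description, and single miRNAs only where both lines reached 10 CPM. Between A549 and ES2, 19 of 59 passed, where 50.5% of all did, and all 19 were higher in ES2 and 0 in A549, where 26.9% and 23.6% of all were. At 10 CPM in both lines, 2 of 9 passed, where 48% of all miRNAs at that level did. miR-7974 averaged 34.5 ± 0.00121 CPM in A549 and 71.3 ± 7.16 in ES2 (SD, n = 2 each; log2 difference of A549 minus ES2 -1.02, SE 0.22, limma adjusted p = 0.00589), and miR-3615 34.9 ± 0.685 and 73.4 ± 5.22 CPM (log2 difference -1.05, limma adjusted p = 0.00554). With TMM factors neither passed (adjusted p = 0.062 and 0.0548 in limma), nor did either in edgeR or DESeq2.

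Between A549 and MV3, 26 of 59 passed, where 57.3% of all did, with all 26 higher in MV3 and 0 in A549, where 37.4% and 20% of all were. At 10 CPM in both lines, 4 of 9 passed, all higher in MV3, where 59.5% of all miRNAs at that level did. miR-3613-5p averaged 115 ± 19.0 CPM in A549 and 419 ± 13.2 in MV3 (SD, n = 2 each; log2 difference -1.86, limma adjusted p = 0.00062), and miR-7706 24.5 ± 0.322 and 89.9 ± 7.92 CPM (log2 difference -1.83, limma adjusted p = 0.00189). These 2 also passed with TMM factors, at log2 differences of -1.06 and -1.04, whereas miR-7974 and miR-4326 did not, there or in edgeR or DESeq2, and DESeq2 did not call miR-7706.

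Between ES2 and MV3, 16 of 59 passed, where 32.8% of all did, with 5 higher in ES2 and 11 in MV3, where 8.97% and 23.8% of all were. With TMM factors 11 passed, 6 and 5 in each direction, where 27.1% of all passed, with 70 miRNAs higher in ES2. At 10 CPM in both lines, 2 of 15 passed, where 32.9% of all miRNAs at that level did. They were miR-7706 (log2 difference of ES2 minus MV3 -1.85, limma adjusted p = 0.00331) and miR-3613-5p (-1.50, limma adjusted p = 0.00343), both higher in MV3 and both past the threshold with TMM factors too, when miR-3615 also passed, higher in ES2 (1.07, limma adjusted p = 0.0203). miR-7706 lost its call with quantile normalization and miR-3613-5p in edgeR. For miR-3173-5p, at 27.7 CPM in each line, the difference was 0.00 with an SE of 0.32, and the test did not tell them apart.

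Between BE(2)C and HepG2, 36 of 59 passed, where 83% of all did, with 33 higher in BE(2)C and 3 in HepG2, where 74.7% and 8.24% of all were. With TMM factors 23 passed, 12 and 11 in each direction, where 351 of all 546 (64.3%) passed, 226 of them higher in BE(2)C. At 10 CPM in both lines, 5 of 8 passed, where 85.9% of all miRNAs at that level did, with 4 higher in BE(2)C and 1 in HepG2. With TMM factors 6 of the 8 passed and all 6 were higher in HepG2, among them miR-3158-3p, miR-3909 and miR-4746-5p, which did not pass by CPM. The share of all miRNAs at 10 CPM in both lines was not computed with TMM factors. The count of 6 and its direction are therefore a description only. By CPM, miR-7706 averaged 1204 ± 534 CPM in BE(2)C and 84.8 ± 1.52 in HepG2 (SD, n = 2 each; log2 difference 3.74, limma adjusted p = 1.2e-05), and miR-7974 and miR-3615 were higher in BE(2)C by 1.93 and 1.76 on the log2 scale. The median over all 546 miRNAs was 2.79 by CPM and 0.49 with TMM factors. With these factors miR-7974 and miR-3615 were higher in HepG2, at log2 differences of -1.07 and -1.24, and miR-7706 did not pass (0.74, limma adjusted p = 0.11). miR-4326 was higher in HepG2 under both scalings, at -0.83 by CPM (limma adjusted p = 0.0212) and -3.82 with TMM factors, but it lost its call by CPM without BE(2)C replicate 2 and without either HepG2 library.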

How the data were processed

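Small RNA of 11 libraries from 6 cell lines was sequenced by the authors. Per the labels, the submitters' processing notes name cutadapt 1.14, Bowtie2 2.3.2, SAMtools 1.5, featureCounts 1.5.3, edgeR 3.30.3 and hg38; the miRNA annotation and use of strand are not given in the sources used here. The deposited values for PANC1 were CPM (read counts scaled to 1000000 per library). The deposited values of the 5 other tables were a normalized signal, CPM divided by a scaling factor within each table. In all tables, 100% of values above 0 were whole multiples of 1 read (tolerance 0.01), so the counts were recovered, rows of 1 name were summed and each library was rescaled to 1000000.

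The 59 miRNAs and the lists were chosen with earlier results of these data known. miRNAs with a line mean of 10 CPM or more were tested with limma 3.58.1 (R 4.3.3) on log2(CPM + 1), with line as the only factor, an intensity trend, Benjamini-Hochberg adjustment and a threshold of 0.05. Because 1 is added to each CPM, fold changes on this scale understate changes of low miRNAs. The labels number the libraries of a line without saying whether they came from separate cultures, whereas the study's methods call them biological replicates; if they were not separate cultures, the p-values measure technical spread. Alternatives were edgeR 4.0.16, DESeq2 1.42.0, TMM factors, quantile normalization, other pseudocounts and filters, and leaving out libraries. The limma script was tested on simulated data.

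Values in every library were given by rule for the 12 highest miRNAs, the widest gap per line, families, both-arm hairpins and overlaps with other RNAs; others named with values (miR-3173-5p, miR-3117-3p and the miRNAs at intron ends, antisense partners, miR-4485-3p and miR-5701) were chosen after their values were seen. Sequences and positions came from RefSeq (GRCh38.p14), genes from GENCODE.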

Additional observations from a re-analysis of the deposited data

How the results depend on the processing

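The number of late-numbered miRNAs kept (59) was 121, 23 and 9 with a line mean of 5, 30 and 100 CPM, 52 where every library of a line had to reach 10 CPM, and 58 to 61 when 1 library was left out. Across the 4 NEXTflex lines, 18 to 21 of the 36 to 38 tested passed when 1 library was left out (18 without A549 replicate 2 or MV3 replicate 1, 19 without ES2 replicate 2), against 30 of 38 with all. Over all 59, the pairs called 19 (A549 and ES2), 26 (A549 and MV3), 16 (ES2 and MV3) and 36 (BE(2)C and HepG2). Of all 546, 50.5%, 57.3%, 32.8% and 83% passed in the same order. In edgeR the counts were 10, 11, 8 and 23 (41.4%, 40.8%, 22.9% and 62.3% of all 546). DESeq2 called 2, 5, 4 and 18 (42.1%, 41.8%, 28.2% and 59.2% of all). Leaving out 1 library raised or lowered each of the 4 limma counts, depending on the library. TMM factors gave 16 for A549 and MV3, where 48% of all passed, and 23 for BE(2)C and HepG2, where 64.3% did. For the latter pair, the split of higher in BE(2)C to higher in HepG2 went from 33 and 3 to 12 and 11. No filter beyond 1 read gave 9 for ES2 and MV3, where 11.6% of the 1608 tested passed. Across 6 lines, most of the 59 and most of all miRNAs still passed when 1 library was left out. With TMM factors, the median replicate difference in HepG2 was 0.46, and 13 miRNAs were highest in BE(2)C and 6 at 10 CPM there alone. Leaving out a BE(2)C library gave 23 to 24 and 15 to 16 for this pair of counts, which were not made over all 546. With TMM factors 19 had no overlap with Novogene higher, where 15.9% of all did so. Without the most abundant of the 59, the summed share was 0.0798% in MV3 replicate 1 and 0.248% in BE(2)C replicate 1.

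Between BE(2)C and HepG2, the log2 difference turned negative for miR-7974 (-1.07 with TMM factors, -1.89 with quantile normalization, -1.28 in edgeR, -1.15 in DESeq2), miR-3615 (-1.24, -2.26, -1.48, -1.36), miR-3158-3p (-2.94, -3.94, -2.99, -2.81) and miR-4746-5p (-2.02, -3.22, -2.16, -1.99), in the same order, for miR-7706 with quantile normalization (-0.035), and for miR-6842-3p with TMM factors (-1.24, from 1.64). The TMM factors of HepG2 were 0.166 and 0.217, against 1.02 to 1.87 elsewhere.

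Replicate numbers did not pair libraries, with correlations of -0.05 to 0.11 between lines. With the replicate block, 58, 24, 19, 25, 14 and 36 were called in the order of the 6 tests, against 59, 30, 19, 26, 16 and 36. Of all miRNAs, 98%, 80.1%, 50.2%, 56.4%, 32.1% and 82.6% were called with the block, against 99.3%, 85.4%, 50.5%, 57.3%, 32.8% and 83% without.

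Depth limits what is seen: a count of 0 allows up to 2.56 CPM in the shallowest library, 10 CPM there stands for 11.7 reads, and PANC1 has no replicate.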
